A study of Mus musculus with 3 samples.

Results

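The cells described here are the bipolar cells of the postnatal day 14 (P14) mouse retina, chosen as every cell of the P14 library that the authors' deposited annotation calls a bipolar cell. There were 578 of them among 3298 P14 cells and 14611 cells in the 3 libraries of the series. The study asked whether loss of the somatostatin receptor Sstr2 changes the making of retinal cell types, and the P14 library holds an allelic series for that question. Retinas of 5 P14 samples were dissociated with papain, marked with lipid-anchored barcodes (MULTI-seq), pooled and sequenced together as a single 10x library. The wild type (*Sstr2* +/+) contributed 1 retina, the heterozygotes (*Sstr2* +/-) 2 and the knockouts (*Sstr2* -/-) 2. A sample is called a retina here, although the sources used here do not say how many retinas it held.

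All 5 retinas came from littermates on a mixed C57BL/6 and CD1 background. The knockout allele was carried by C57BL/6NCrl mice, which were outbred to CD1 before heterozygous progeny were intercrossed. The knockout affects the whole body and is not restricted to bipolar cells.

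Bipolar cells are the interneurons that carry the light signal from photoreceptors to amacrine and ganglion cells. Rod bipolar cells and ON cone bipolar cells respond to light onset through the metabotropic glutamate receptor mGluR6 (*Grm6*), which closes the cation channel TRPM1 (*Trpm1*) in darkness, whereas OFF cone bipolar cells use ionotropic glutamate receptors. They are among the last neurons to be born in the retina, and at P14 their synapses are close to mature.

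The wild-type retina gave 207 bipolar cells, heterozygous retina 1 gave 91 and heterozygous retina 2 gave 29. Knockout retina 1 gave 159 and knockout retina 2 gave 92. Transcripts were counted as unique molecular identifiers (UMIs), and the bipolar cells of these retinas held 1198461, 595493, 185664, 629668 and 560554 UMIs in the same order. Heterozygous retina 2 was therefore the shallowest, with the fewest cells and the fewest UMIs. Levels are given below as CPM, a gene's UMIs summed over the bipolar cells of a retina and scaled to a total of 1000000. In such sums, fewer expressing cells and less RNA per cell cannot be told apart. Values for the 5 retinas are listed throughout as wild type, heterozygous 1, heterozygous 2, knockout 1 and knockout 2.

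Several properties set single retinas or cells apart. The X-inactivation transcript *Xist* stood at 5.84, 40.3, 5187, 14.3 and 3.57 CPM, and the Y-linked *Ddx3y* at 104, 73.9, 0, 127 and 92.8 CPM. Heterozygous retina 2 was thus the only retina with high *Xist* and no *Ddx3y* UMI. Knockout retina 1 had the shallowest bipolar cells, whose median cell held 2697 UMIs (4492, 6214, 5390 and 4353 in the others), and the highest mitochondrial share, 14.1% of UMIs against 10.2%, 9.67%, 10.5% and 9.08%. Its rods did not share the low depth, whose median was 3313 UMIs (3207.5 to 3554 in the other retinas). Cell barcodes were shared with another library by 2 of the 578 cells.

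A small number of cells carried transcripts of another cell type. Of the 578 cells, 6 held at least 3 UMIs of 7 microglia markers, with 1 such cell in the wild-type retina, 2 in heterozygous retina 1 and 1 in each of the others. Those 6 cells held 1083 of the 1097 microglia-marker UMIs found in bipolar cells, or 98.7%, and 5 of them had at most 1 UMI of the 4 bipolar markers described below. *C1qa*, a complement subunit, was the most abundant of the 7 markers. Their summed level was 335, 195, 64.6, 699 and 227 CPM, highest in knockout retina 1 and lowest in heterozygous retina 2. Counts of genes called between genotypes are therefore given with and without these 6 cells.

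Photoreceptor and glial transcripts were also present. The 15 rod markers summed to 9945, 5931, 9372, 7650 and 5443 CPM in bipolar cells against 79391 CPM in rods, led by *Gngt1*, and none of the 15 was at 0. The 10 cone markers summed to 521, 202, 377, 321 and 219 CPM, led by *Gngt2*, with none at 0. The 10 Müller glia markers summed to 556, 564, 323, 1407 and 457 CPM, led by *Apoe*, with none at 0. Knockout retina 1 stood highest for the glial list and the wild type highest for both photoreceptor lists. The 6 microglia-marker cells held 1089 of the 1345 *Apoe* UMIs, or 81.0%, and without them the Müller glia list summed to 249.1, 349, 265, 599 and 288 CPM, again highest in knockout retina 1. The part of these transcripts in the genotype results was not tested beyond the alternatives given below.

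The label was first checked against 4 bipolar markers. *Trpm1*, the ON transduction channel, stood at 2941, 3127, 3059, 3062 and 2974 CPM in bipolar cells (3033 ± 74.6, SD, n = 5 retinas), against 38.2 CPM in rods, 15.4 in cones, 30.0 in Müller glia and 14.9 in the amacrine annotation. The 5 retinas were nearly level for *Trpm1*, and each lay far above every other cell type of the same retina. *Grm6* stood at 778, 843, 765, 794 and 840 CPM (804 ± 35.9), with 39.3 CPM in rods. *Vsx1*, a homeobox factor of some cone bipolar cells, stood at 143, 87.3, 215, 205 and 173 CPM (165 ± 51.8) and varied most among the retinas in proportion to its mean. *Cabp5*, a calcium-binding protein, stood at 401, 467, 415, 349 and 482 CPM (423 ± 53.2), with 79.5 CPM in cones.

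All 4 markers were higher in bipolar cells than in each of the 4 other annotated types in each of the 5 retinas. The smallest log2 ratio of CPM + 1 over the retinas, to the highest other type, was 5.46 for *Trpm1*, 4.15 for *Grm6*, 3.34 for *Vsx1* and 1.24 for *Cabp5*. The annotation was made from clusters of the same counts, so these contrasts describe the label and were not tested. The plot of the 4 markers by cell type shows the distance for each retina.

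**Figure D1:**
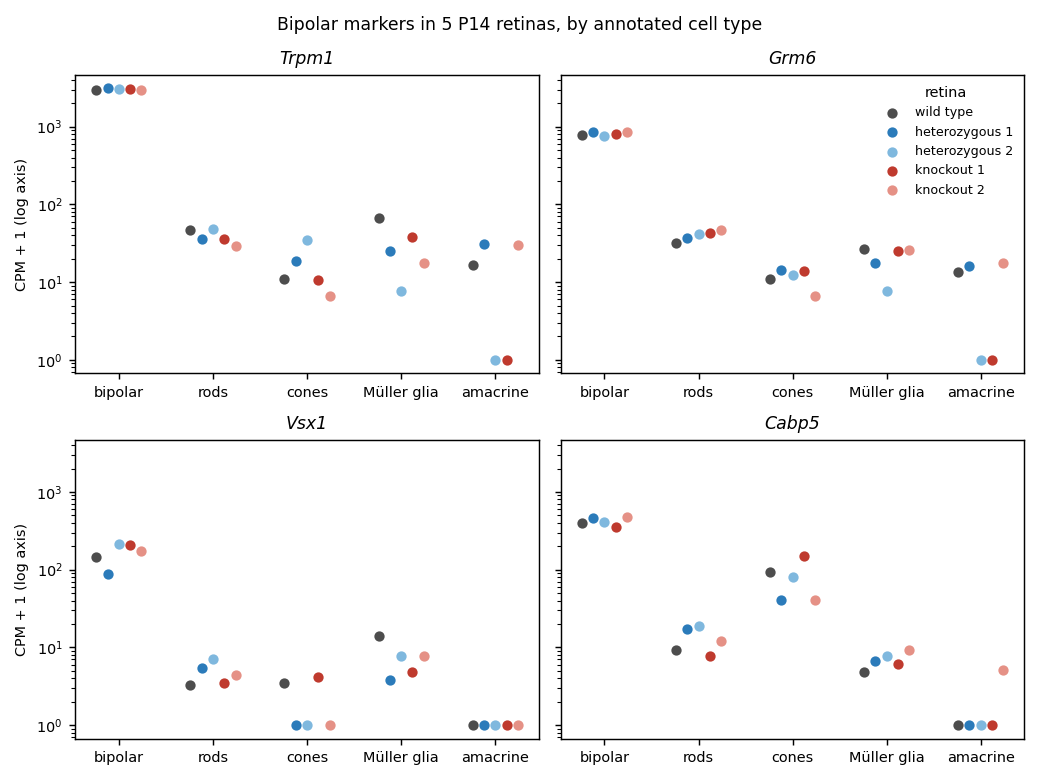
Level of *Trpm1*, *Grm6*, *Vsx1* and *Cabp5* in CPM + 1 on a log axis, for the 5 annotated cell types of the P14 library; each point is 1 retina, coloured by genotype and replicate. The bipolar points lie above every point of the other 4 types in each panel, and cones come closest, for *Cabp5*.

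At the level of single cells, a *Trpm1* UMI was found in 81.7% of bipolar cells and 11.0% of rods, whose median depths were 3939.5 and 3374 UMIs. With each cell thinned to 1300 UMIs, which left out 0 cells, these shares were 70.2% and 5.11%. *Grm6* was found in 57.1% of thinned bipolar cells and 5.11% of thinned rods (79.8% and 12.3% unthinned), *Cabp5* in 28.7% and 1.76% (49.3% and 3.96%) and *Vsx1* in 8.997% and 0.793% (14.0% and 1.19%). Each bipolar share lay above the rod share, which is taken as the background for cells that should lack these genes. Of the 578 cells, 36 held no UMI of the 4 markers.

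The *Trpm1* and *Cabp5* promoters are shown because photoreceptors and bipolar cells share homeobox factors, Crx and Otx2, that bind the letters TAATCC. The 250 bases before each start site were searched for TAATCC on both strands (reverse complement GGATTA), and no other motif was searched. The windows come from RefSeq on GRCm38.p6, *Trpm1* on the plus strand of chromosome 7 at chr7:64153585-64153834 and *Cabp5* on the plus strand at chr7:13397905-13398154, with matches in capitals.
Trpm1: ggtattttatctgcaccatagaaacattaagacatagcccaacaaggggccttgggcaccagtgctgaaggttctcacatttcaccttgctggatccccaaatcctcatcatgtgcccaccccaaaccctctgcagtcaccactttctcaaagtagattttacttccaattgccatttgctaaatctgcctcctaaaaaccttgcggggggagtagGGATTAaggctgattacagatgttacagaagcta
Cabp5: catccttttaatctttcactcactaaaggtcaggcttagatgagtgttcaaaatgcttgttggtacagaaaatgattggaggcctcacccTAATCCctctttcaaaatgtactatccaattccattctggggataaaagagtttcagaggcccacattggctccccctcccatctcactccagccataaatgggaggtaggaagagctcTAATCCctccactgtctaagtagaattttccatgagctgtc

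The *Trpm1* match began 34 bases before the start site, and the *Cabp5* matches began 160 and 41 bases before it. The windows of *Grm6*, *Vsx1* and a second *Trpm1* start held no match. Of the 32851 windows searched, which did not include chromosome 18, 6.25% held one. Of the 27025 genes with a window 7.21% had a match, and of the 18 most bipolar-enriched genes with a window, described next, 1 did (5.56%). A match of letters is a description and not a binding site.

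Across the 5215 genes with at least 100 UMIs in bipolar cells, 401 (7.69%) were higher in bipolar cells than in each other type in all 5 retinas, and 29 had a smallest log2 ratio above 3. The 20 genes with the largest such ratios were *Trpm1*, *Pcp2*, *Gng13*, *Grm6*, *Neurod4*, *Fam135b*, *Gabrr1*, *Bhlhe23*, *Otor*, *Car10*, *Gsg1*, *Gm35217*, *Gm30382*, *Glra1*, *Gpr179*, *Ntng1*, *5730507C01Rik*, *Scgn*, *Vsx1* and *Trnp1*. The annotation was made from the same counts, so these ratios are given without a test.

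Transcription factors formed one group among them. Of 17 bipolar transcription factors, 11 were highest in bipolar cells in all 5 retinas. *Neurod4*, a basic helix-loop-helix factor, stood at 816, 1226, 1174, 677 and 1431 CPM, lowest in knockout retina 1 and highest in knockout retina 2. *Bhlhe23*, needed for rod bipolar maturation, stood at 146, 156, 91.6, 102 and 191 CPM. *Isl1*, an ON bipolar and amacrine factor, stood at 1203, 1270, 1395, 1093 and 1424 CPM. *Otx2* was higher in bipolar cells (452 ± 18.2 CPM) than in rods (216 CPM). *Crx* and *Neurod1* were instead highest in photoreceptors, at 625 and 1904 CPM in rods against 211 ± 30.7 and 495 ± 39.9 CPM in bipolar cells.

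Genes of the mGluR6 cascade formed another group. Of its 13 genes, 8 were highest in bipolar cells in all 5 retinas. *Pcp2*, a G-protein regulator, stood at 3422, 3555, 2348, 2174 and 3420 CPM, and *Gng13*, the cascade's G-protein gamma subunit, at 2396, 2798, 1977, 1782 and 2580 CPM. Both were lower in heterozygous retina 2 and knockout retina 1 than in the other 3 retinas, a split that does not follow genotype. *Gpr179*, an orphan receptor of the dendritic tips, stood at 497, 541, 533, 642 and 571 CPM. *Gnb3*, the beta subunit shared with cones, was higher in cones (2316 CPM) than in bipolar cells (1080 ± 116 CPM), and *Lrit3*, a synaptic leucine-rich repeat protein, gave 5 UMIs in all bipolar cells.

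Receptors for inhibitory transmitters were represented by *Gabrr1*, a GABA-C receptor subunit, at 189, 217, 205, 171 and 173 CPM, and *Glra1*, a glycine receptor subunit, at 47.6, 43.7, 26.9, 42.9 and 71.4 CPM. Of 11 GABA and glycine receptor genes, 6 were highest in bipolar cells in all 5 retinas. Of 12 calcium-binding and signalling genes 5 were, among them *Scgn* at 322, 287, 512, 262 and 312 CPM. Of 20 ribbon synapse genes, 2 were. For the ribbon synapse list the median smallest log2 ratio was -1.02, beside -1.02 over all 5215 genes.

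*Sstr2* itself gave 0 UMIs in bipolar cells of every retina. With 3169840 UMIs, a count of 0 allows a level of up to 0.946 CPM (3 counts, counting error only). The receptor was also at 0 in rods, cones and Müller glia, and the amacrine annotation held it at 6.19, 30.1, 0, 7.75 and 54.2 CPM (2, 2, 0, 1 and 13 UMIs). There the retina labelled knockout 2 was the highest, which goes against its label if the counted end of the transcript is deleted. At P0, however, the paper reports more *Sstr2* mRNA in neurogenic progenitors of mutants than of controls. The reads count 3' ends, and which part of the gene the allele lacks is not given in the sources used here, so the transcript did not check the genotype labels. Genotype names throughout are those of the labels. *Sstr1* was at 0 in bipolar cells and *Sst*, the ligand, gave 1 UMI. Downstream, *Gnao1*, a G-protein alpha subunit that also serves mGluR6, stood at 940, 1078, 953, 827 and 1051 CPM, and it was the only 1 of the 14 listed somatostatin signalling genes in the table that was highest in bipolar cells in all 5 retinas.

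Clustering the 578 cells on their own gave 13 groups at resolution 1 (10 at 0.5 and 18 at 1.5). A cluster was named from subclass markers only where at least 3 of a list's markers were 2-fold or more above the other bipolar cells, more than for any other list, and no other list had as many markers among the 10 leading genes. The last condition was made stricter after the clusters had been seen. With ties allowed, as first written, cluster 10 would also have been OFF cone bipolar-like, which would make 4 such clusters of 122 cells in place of 3 of 96.

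Cluster 1 (79 cells) was rod bipolar-like. All 6 rod bipolar markers were raised in it, including *Prkca*, the protein kinase C alpha used to stain rod bipolar cells, at 2137 CPM, and *Sebox* at 681 CPM. Cluster 0 (99 cells) had *Prkca* at 2558 CPM but no other rod bipolar marker at 2-fold, and cluster 2 (58 cells) had all 6 raised, with *Prkca* at 3302 CPM, but had *Sorcs3* of the OFF list, and no rod bipolar marker, among its 10 leading genes. *Sorcs3* stood at 199, 115 and 226 CPM in clusters 0, 1 and 2. In the clusters named OFF cone bipolar-like below (3, 9 and 11) it stood at 0, 11.0 and 13.2 CPM. Clusters 0 and 2 stayed unnamed at resolution 1. At resolution 0.5 rod bipolar-like clusters held 236 cells, or 40.8%, against 13.7% at resolution 1. The share given this name therefore depended on the resolution and on the naming rule, which left out clusters 0 and 2. Clusters 0, 1 and 2 had *Prkca* at 2137 CPM or more and *Trpm1* at 5112 CPM or more. In every other cluster these genes stood at 407 and 1485 CPM or less.

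The clusters that met the rule for OFF cone bipolar-like were 3, 9 and 11. Cluster 3 (54 cells) had 10 OFF markers raised, with *Neto1*, a kainate receptor auxiliary subunit, at 236 CPM and *Ebf1*, a transcription factor, at 563 CPM. Cluster 9 (28 cells) had the kainate receptor subunit *Grik1* at 3503 CPM against 117 CPM in the other bipolar cells. Cluster 11 (14 cells) was led by *Pgc* and *Pcdh17*. *Grm6* was low in cluster 9 (98.8 CPM) but stood at 271 CPM in cluster 3 and 508 CPM in cluster 11. The name of cluster 11 rested on 4 of the 15 OFF markers, *Bhlhe22*, *Pcdh17*, *Pcdh10* and *Nnat*, and other values went against it. *Grik1* and *Neto1* stood at 13.2 CPM each in cluster 11, *Tacr3*, *Syt2*, *Irx6*, *Lhx3* and *Fezf2* were at 0, and *Isl1*, *Gng13* and *Pcp2* stood at 745, 2432 and 2854 CPM, while *Trpm1* was low (52.7 CPM).

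No cluster met the rule for ON cone bipolar-like at resolution 1, and 1 cluster of 25 cells did at resolution 1.5. ON markers were nonetheless among the leading genes of several unnamed clusters. *Sox6* was in cluster 7 (41 cells) and *Igfn1* in cluster 8 (34 cells), which also had *Pcdh17* and *Vsx1* of the OFF list raised, and *Serpini1* and *Cpne9* were raised in cluster 12 (10 cells). Cluster 10 (26 cells) was led by *Cck*, at 616 CPM against 4.42 CPM elsewhere, with *Vsx1* at 1268 CPM, and had 2 ON and 2 OFF markers among its leading genes. It had 5 OFF and 3 ON markers raised. *Isl1*, *Scgn* and *Gng13* stood at 2101, 1718 and 3679 CPM in it, and *Grm6* and *Trpm1* at 945 and 1439 CPM.

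Cluster 4 (46 cells) and cluster 6 (44 cells) carried genes of other cell types. Cluster 4 held 5 of the 6 microglia-marker cells among its 46 cells, and *Ccl4*, *Ccl3* and *Lyz2* led it. It also had 4 ON cone bipolar markers raised, *Sox6*, *Htr3a*, *Lrrtm1* and *Kcng4*, at 263, 31.5, 94.5 and 211 CPM, and 2 OFF markers. All 7 microglia markers were raised too and outnumbered these, so the cluster stayed unnamed. Cluster 6 had all 15 rod markers and 7 of 10 cone markers at 2-fold or more, and its median doublet score of 0.210 was the highest of the 13 clusters. Of its 44 cells 24 came from the wild-type retina. The map of subclass markers by cluster shows these 2 groups in its lowest 3 bands.

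**Figure D2:**
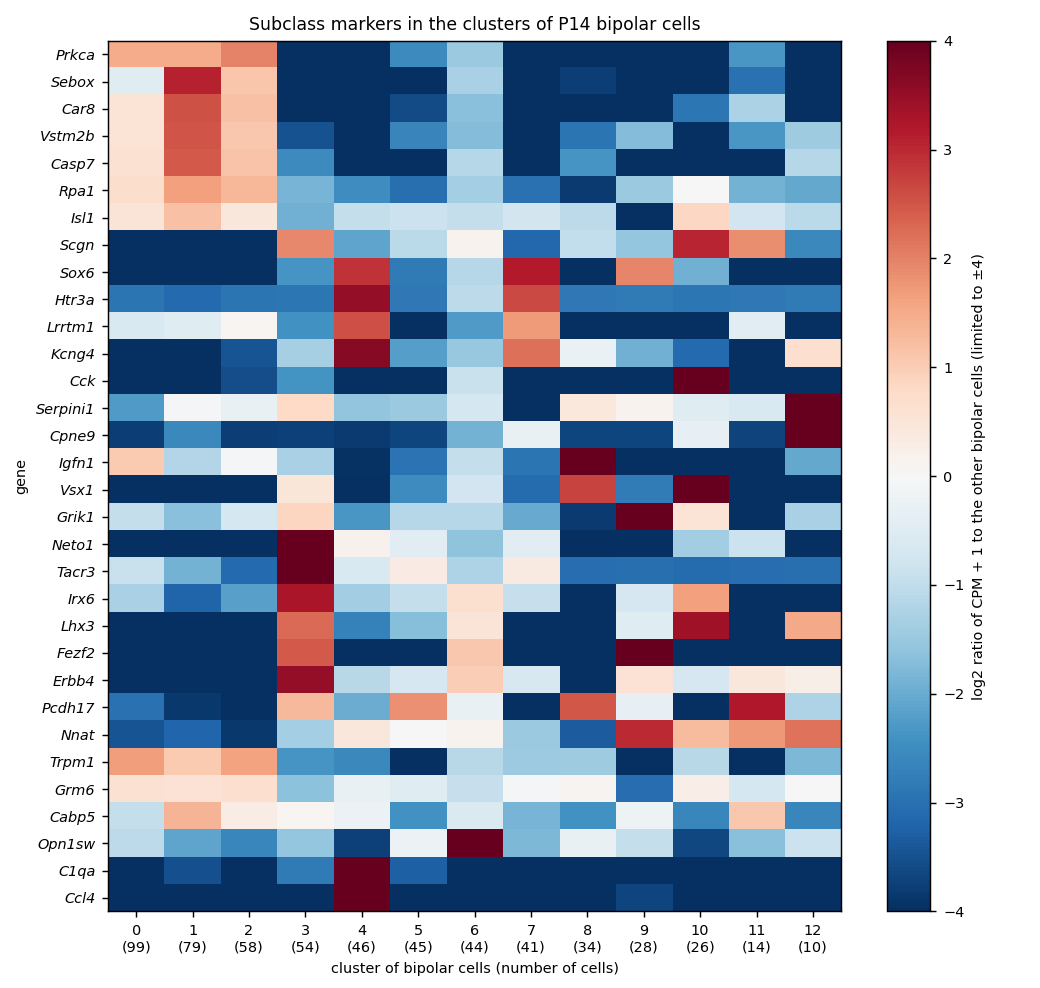
Log2 ratio of CPM + 1 in each of 13 clusters of P14 bipolar cells to that in the other bipolar cells (colour, limited to ±4), for subclass markers and genes of photoreceptors and microglia; cell numbers stand under each cluster. *Prkca* is raised in clusters 0, 1 and 2, *Grik1* in cluster 9, *Opn1sw* in cluster 6, and *C1qa* and *Ccl4* in cluster 4.

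Cluster shares were compared between knockout and the other 3 retinas, and no cluster passed after adjustment. Over the 13 clusters the smallest two-sided exact permutation p was 0.2 (0.867 after Benjamini-Hochberg adjustment over the clusters), for cluster 6, which made up 5.66% and 3.26% of knockout bipolar cells and 11.6%, 6.59% and 6.90% in the wild-type and heterozygous retinas. Both knockouts also lay outside the range of the other 3 retinas for cluster 3, at 11.3% and 10.9% against 8.21%, 9.89% and 0% (exact permutation p = 0.3), and for cluster 10 (exact permutation p = 0.4), whose shares are given below. The smallest was also 0.2 at resolution 0.5 (adjusted 0.833), and at resolution 1.5 it was 0.1 for 1 cluster (exact permutation test, adjusted 0.9). At this number of retinas no p under 0.1 is possible.

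Bipolar cells made up 20.7% of the cells of the wild-type retina (95% Clopper-Pearson interval 18.2 to 23.3), 12.3% (10.0 to 14.9) and 9.54% (6.48 to 13.4) of the heterozygous retinas, and 25.3% (21.9 to 28.9) and 14.7% (12.03 to 17.7) of the knockout retinas. The intervals cover counting error only. Knockout retina 1 was the highest and both heterozygous retinas the lowest, so that the knockout and heterozygous retinas did not overlap, while the wild type lay between the 2 knockouts. The mean was 19.999% ± 7.47 (SD, n = 2) in knockouts and 10.9% ± 1.95 (n = 2) in heterozygotes, a difference of 9.08 percentage points (exact permutation test, two-sided, p = 0.333, the smallest that 2 against 2 allows). Against all 3 other retinas (14.2% ± 5.81) the difference was 5.82 percentage points (exact permutation p = 0.4, smallest possible 0.1). Without the 6 microglia-marker cells these differences were 9.22 and 5.90 percentage points.

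Rods, 2271 of the 3298 P14 cells, dominate that denominator. Among cells other than rods, bipolar cells made up 62.3%, 54.2%, 50.0%, 54.8% and 51.4%. On this denominator knockouts exceeded heterozygotes by 1.03 percentage points (exact permutation p = 0.667), and their difference from the other 3 retinas turned to -2.39 (exact permutation p = 0.9). The wild type was highest on this denominator and heterozygous retina 2 lowest, and neither share was shown to differ by genotype.

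**Figure D3:**
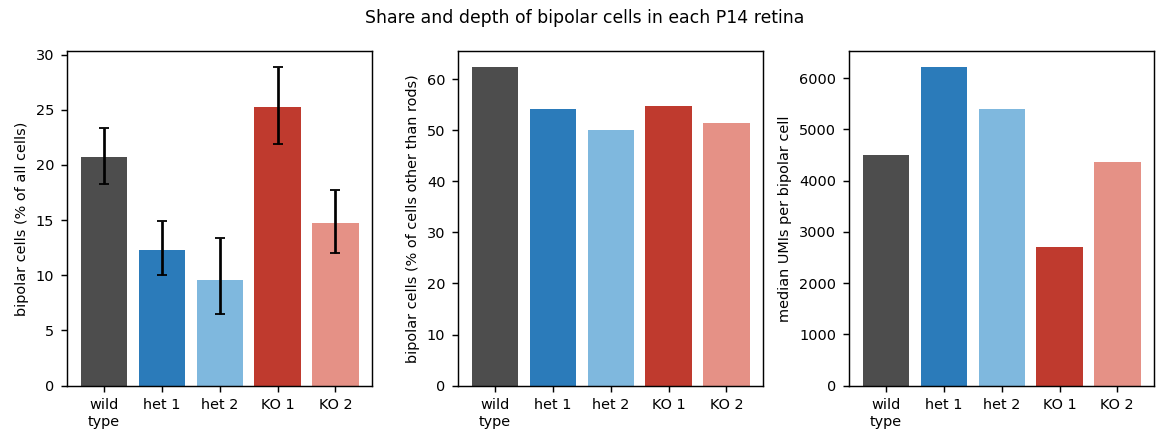
Bipolar cells of each P14 retina as a percentage of all its cells (left, with 95% Clopper-Pearson intervals) and of its cells other than rods (middle), and the median UMIs per bipolar cell (right); het is heterozygous and KO knockout, and each bar is 1 retina. The left panel runs from 9.54% to 25.3% and the middle one from 50.0% to 62.3%, and knockout retina 1 has the lowest depth per cell, 2697 UMIs.

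Gene expression was compared between genotypes, as labelled and not checked by *Sstr2* itself, on the sums per retina, by edgeR's quasi-likelihood test with all 5 retinas in one fit and Benjamini-Hochberg adjustment over 8787 genes. Between knockout and heterozygous retinas, 12 genes (0.137%) passed an adjusted p of 0.05, 7 higher (0.0797%) and 5 lower (0.0569%) in knockouts. DESeq2 called 1 of them, *Gm8797*, and so did limma on the summed SCT values. Among the 7 higher genes were *C1qa*, *C1qb* and *C1qc* of complement, the chemokines *Ccl3* and *Ccl4* and the matrix protein *Sparc*, of which microglia express many. The 5 lower genes were *Xist*, *Tsix*, *Gm8797*, *Nnat* and *Lyz2*, the last a lysozyme of myeloid cells that stood at 11.7, 233, 5.39, 22.2 and 8.92 CPM and was high in heterozygous retina 1 alone.

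None of the 7 higher genes passed once the 6 microglia-marker cells were left out. *C1qa*, *C1qb* and *C1qc* are among the 7 markers by which those cells were found, so their loss followed from the choice of cells and is no test of it. *C1qa* stood at 100, 33.6, 32.3, 176 and 60.7 CPM (log2 fold change 1.85, SE 0.40, adjusted p 0.0114 by edgeR), and the knockout retinas lay above the heterozygous ones with the wild type between the knockouts. Without knockout retina 1 its log2 fold change was 0.85 (adjusted p 1 by edgeR). It also missed the threshold without the wild type (1.86) or without heterozygous retina 1 (1.90) or 2 (1.83), although the fold change hardly moved there. *Ccl4* stood at 179, 16.8, 0, 376 and 1.78 CPM (3.95, SE 0.67, adjusted p 0.000145), but the groups overlapped, since knockout retina 2 lay below heterozygous retina 1. *Sparc* stood at 43.4, 25.2, 26.9, 122 and 73.1 CPM (1.94, SE 0.41, adjusted p 0.00836). Of the 16 alternatives run for *Sparc*, 5 kept its call and 11 kept its direction only. It missed the threshold without the wild type (1.94, adjusted p 0.0842 by edgeR) and without cluster 6 (1.86, adjusted p 0.0793). Without knockout retina 1 its log2 fold change was 1.49.

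Without those 6 cells, 6 genes passed (0.0692% of 8666), 0 higher and 6 lower in knockouts. *C1qa*, *C1qb*, *C1qc*, *Ccl3*, *Ccl4* and *Lyz2* then fell below the filter on low counts, and *Sparc* gave 1.43 with an adjusted p of 0.627 by edgeR. *Sparc* was most abundant in Müller glia, at 2832 ± 273 CPM (SD, n = 5 retinas), and without the 6 cells it stood at 16.0, 17.1, 28.2, 65.3 and 43.1 CPM in bipolar cells. The part of glial transcripts in its difference was not tested. *Cck* and *Rnf121* joined *Xist*, *Tsix*, *Gm8797* and *Nnat* among the lower genes. *Cck*, a neuropeptide gene, stood at 70.1, 48.7, 96.9, 30.2 and 0 CPM with all cells, lowest in both knockouts, and its log2 fold change was -2.03 (SE 0.50, adjusted p 0.0728) with these cells and -2.04 (adjusted p 0.00996) without them. Against wild type it was -2.11 (SE 0.51, adjusted p 0.0666 by edgeR) with them and -2.10 (adjusted p 0.00274) without them. Cluster 10, which held most *Cck*, made up 5.80%, 3.30%, 17.2%, 3.14% and 1.09% of the bipolar cells (12, 3, 5, 5 and 1 cells), also lowest in both knockouts. The part of this share in the *Cck* difference was not tested.

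*Xist* and *Tsix*, its antisense transcript, gave log2 fold changes of -8.08 (SE 0.78, adjusted p 1.42e-12) and -6.89 (SE 0.81, adjusted p 3.66e-09) by edgeR. *Tsix* stood at 0.834, 6.72, 738, 1.59 and 3.57 CPM, so both values came from heterozygous retina 2, the retina without *Ddx3y*. Without that retina the log2 fold change of *Xist* was -2.11 and missed the threshold. Heterozygous retina 1 has the same genotype, and it held *Xist* at 40.3 CPM and *Tsix* at 6.72 CPM beside *Ddx3y* at 73.9 CPM. The levels of both genes thus differed between 2 retinas of the same genotype. *Nnat*, an endoplasmic reticulum protein, stood at 136, 243, 264, 110 and 94.5 CPM (-1.29, SE 0.30, adjusted p 0.0308). Both heterozygous retinas lay above the other 3 for *Nnat*, and the wild type lay closer to the knockouts. Its log2 fold change stayed at -1.29 without the wild type, -1.35 without heterozygous retina 1 and -1.25 without heterozygous retina 2, with adjusted p of 0.115, 0.417 and 0.708 by edgeR. *Nnat* also missed the threshold without the 5% of P14 cells with the highest doublet scores (-1.16, adjusted p 0.144 by edgeR). For knockouts against the other 3 retinas together its log2 fold change fell to -0.98 (adjusted p 0.999 by edgeR). It belongs to the OFF cone bipolar list, of which it was the only member of 13 tested to pass.

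**Figure D4:**
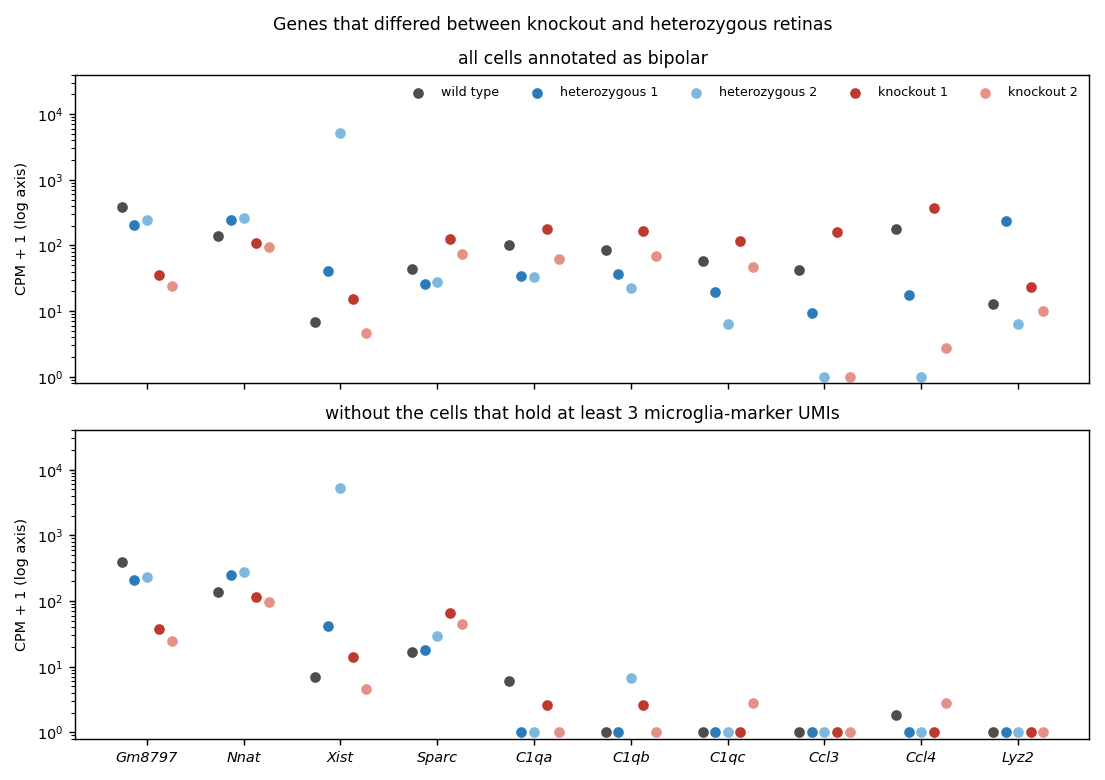
Level in bipolar cells of 10 of the genes past the threshold between knockout and heterozygous retinas, in CPM + 1 on a log axis; each point is 1 retina, with all annotated bipolar cells above and without the 6 microglia-marker cells below. *Gm8797* and *Nnat* keep their order of retinas in both panels, while the complement and chemokine genes fall to 0 or near it in the lower one.

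*Gm8797* was the only gene that passed in every alternative run for both knockout comparisons. This gene lies on chromosome 3 (chr3:5750806-5751295, plus strand, GRCm38, GENCODE M21) and resembles *Gm1821*, with 98.7% identity over 392 bases, and the polyubiquitin gene *Ubb*, with 98.2% over 384 bases, so the assignment of reads among them is uncertain. In bipolar cells it stood at 390, 203, 242, 34.9 and 23.2 CPM, with both knockouts below all 3 other retinas. The log2 fold change against heterozygotes was -2.89 (SE 0.35, adjusted p 7.96e-09 by edgeR) and against wild type -3.70 (SE 0.36, adjusted p 3.93e-12).

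Both knockouts also lay below all 3 other retinas in rods, cones and Müller glia. Rods held *Gm8797* at 496, 246, 250, 37.9 and 36.0 CPM, cones at 534, 237, 360, 28.7 and 50.9 CPM and Müller glia at 436, 209, 223, 35.6 and 28.4 CPM. The 68 cells of the amacrine annotation gave 477, 150, 0, 15.5 and 100 CPM, where heterozygous retina 2 was lowest and the groups overlapped. The difference between knockout and heterozygous retinas was not shown to differ between bipolar cells and rods (interaction log2 -0.13, adjusted p 1 by edgeR).

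The wild type was a single retina with no replicate to show its own spread, and the 2 comparisons with it share that retina. It still affected the fit of all 5 retinas. Without it 7622 genes were tested in place of 8787, and 3 passed in place of 12 for knockout against heterozygous. Against wild type, 8 genes (0.091%) passed in knockouts, 4 higher (0.0455%) and 4 lower (0.0455%), and 8 (0.091%) passed in heterozygotes, 5 higher (0.0569%) and 3 lower (0.0341%). Without the 6 microglia-marker cells, 11 genes passed in knockouts (0.127%), 5 higher (0.0577%) and 6 lower (0.0692%), and 9 in heterozygotes (0.104%), 5 higher (0.0577%) and 4 lower (0.0462%). DESeq2 and limma each called 1 gene, *Gm8797*, in the first comparison and 0 in the second. At an unadjusted p under 0.05 edgeR gave 193 genes in the second, DESeq2 gave 23 and limma gave 94.

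The genes called against the wild type differed in how the retinas were ordered. *Pttg1*, the securin of the cell cycle, stood at 2.50, 43.7, 16.2, 36.5 and 46.4 CPM, lowest in the wild type (knockout against wild type 3.97, SE 0.70, adjusted p 0.000539 by edgeR). It was also lowest in the wild type in rods, at 1.87 CPM against 9.27 to 22.6 CPM. *Rnf121*, a ubiquitin ligase, stood at 153, 124, 37.7, 28.6 and 33.9 CPM (-2.26, SE 0.39, adjusted p 0.000283), with heterozygous retina 1 near the wild type and heterozygous retina 2 near the knockouts. In rods *Rnf121* stood at 223, 228, 33.7, 37.9 and 32.5 CPM, with the same retinas high and low.

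*Gm4792* separated the retinas without regard to genotype, at 18.4, 275, 318, 11.1 and 269 CPM. The wild type and knockout retina 1 were low and the other 3 high, and cones showed the same grouping, at 27.3, 179, 472, 47.9 and 237 CPM. *Gal*, the neuropeptide galanin, stood at 5.84, 28.5, 59.2, 9.53 and 78.5 CPM (knockout against wild type 2.86, SE 0.66, adjusted p 0.0486 by edgeR), also with the wild type and knockout retina 1 low. Without knockout retina 2 the log2 fold change against wild type was -0.67 for *Gm4792* and 0.73 for *Gal*, and neither passed. *Gm45768*, a long non-coding RNA, stood at 13.4, 35.3, 43.1, 34.9 and 87.4 CPM (2.19, SE 0.50, adjusted p 0.0417 by edgeR) and likewise missed the threshold without knockout retina 2. *9030624G23Rik* stood at 50.9, 15.1, 26.9, 4.76 and 10.7 CPM (-2.69, SE 0.58, adjusted p 0.0188) and shares near-identical sequence with 10 other genes, so its count is uncertain. Of the 13 alternatives run for it, 9 kept its call and 4 its direction only, among them the fit without knockout retina 1 (-2.22).

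Of the 7 tested cone markers, *Opn1sw*, the short-wavelength cone opsin, was the only 1 that passed by edgeR, in both comparisons with the wild type. It stood at 128, 18.5, 48.5, 25.4 and 19.6 CPM (knockout against wild type -2.46, SE 0.41, adjusted p 0.000215 by edgeR). Without cluster 6, which was rich in photoreceptor transcripts and held 24 wild-type cells, its log2 fold change was 1.01, and without the 5% of P14 cells with the highest doublet scores it was 1.07, so the direction turned. All 7 tested cone markers lay below 0 in both comparisons (median log2 fold change -0.74 in knockouts and -0.93 in heterozygotes), with 2 and 3 at an unadjusted p under 0.05. All 15 rod markers also lay below 0 (medians -0.47 and -0.41), and 0 passed. Müller glia markers went the other way, with 8 of 9 above 0 in knockouts against wild type (median 0.80, or 1.08 without the 6 microglia-marker cells) and 7 of 9 in heterozygotes (median 0.38), and 0 passed. At an unadjusted p under 0.05 there were 3 and 2 of these 9, beside 1.73% and 2.2% of all genes. For knockout against heterozygous 5 of 9 were above 0 (median 0.15) and 0 passed. There 3 had an unadjusted p under 0.05, beside 3.45% of all genes. All 11 mitochondrial transcripts were above 0 in both knockout comparisons (medians 0.16 against heterozygotes and 0.28 against wild type), and 0 passed. The knockouts did not share this direction, since the summed level was 100917, 96125, 104118, 139945 and 90213 CPM. Knockout retina 1 was the highest and knockout retina 2 the lowest of the 5. *Guca1a*, a guanylate cyclase activator of rods and cones, stood at 593 ± 219 CPM in rods and 3120 ± 257 CPM in cones (SD, n = 5 retinas). In bipolar cells *Guca1a* stood at 119, 35.3, 21.5, 71.5 and 33.9 CPM and passed between heterozygotes and wild type (-1.91, SE 0.43, adjusted p 0.0255 by edgeR). It missed the threshold without cluster 6 (-1.41), without the highest doublet scores (-1.60) and without heterozygous retina 1 (-2.45) or 2 (-1.73).

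Lists of genes that bipolar cells use gave few calls. None of the 4 markers passed in any of the 3 comparisons by edgeR, nor any of the 17 transcription factors, the 12 tested genes of the mGluR6 cascade, the 6 rod bipolar markers, the 19 tested ribbon synapse genes, the 9 tested GABA and glycine receptors, the 10 tested calcium-binding genes or the 9 tested somatostatin signalling genes. Of the 79 different genes tested in these 8 lists, 1 had an unadjusted p under 0.05 for knockout against heterozygous, 1 for knockout against wild type and 4 for heterozygous against wild type, and DESeq2 and limma also called 0 of them. Without the 6 microglia-marker cells edgeR also called 0. Over all 8787 genes the shares at that unadjusted p were 3.45% (303 genes), 1.73% (152) and 2.2% (193) in the same order. Of the 11 tested ON cone bipolar markers, 0 passed by edgeR with all cells, and *Cck* was closest. At an unadjusted p under 0.05 there were 4 of these 11 for knockout against heterozygous, 3 for knockout against wild type and 1 for heterozygous against wild type. For knockout against heterozygous the median log2 fold change was -0.04 over the transcription factors, -0.05 over the cascade and -0.03 over the ribbon synapse genes, beside 0.0027 over all 8787 genes. The OFF cone bipolar markers, of which 4 of 13 had an unadjusted p under 0.05 and *Nnat* alone passed, had a median of 0.28 in that comparison. Their median for knockout against wild type was 0.78, where 11 of 13 were above 0, 3 had an unadjusted p under 0.05 and 0 passed.

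Of the 9 tested immature neuron genes, 0 passed by edgeR and 0 had an unadjusted p under 0.05 in any of the 3 comparisons. In knockouts against heterozygotes 2 were above 0, with a median of -0.30, whereas against wild type 8 of 9 were above 0 in knockouts (median 0.18) and 7 of 9 in heterozygotes (median 0.36). None passed without the 6 microglia-marker cells either. *Stmn1*, a microtubule regulator of growing neurites, stood at 392, 506, 479, 214 and 498 CPM and its log2 fold change was -0.47 (SE 0.30, adjusted p 0.999 by edgeR), with knockout retina 1, the shallowest per cell, lowest and knockout retina 2 level with the heterozygotes. *Tmsb10*, an actin-binding peptide, stood at 2116, 2736, 1923, 1456 and 2813 CPM, with the same retina lowest.

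Near *Sstr2* (chromosome 11, chr11:113619342-113626028, GRCm38), 145 tested genes lay within 10 Mb, and 0 of them passed in any of the 3 comparisons by edgeR. At an unadjusted p under 0.05 there were 3 for knockout against heterozygous, 4 for knockout against wild type and 3 for heterozygous against wild type, beside the shares of 3.45%, 1.73% and 2.2% over all 8787 genes.

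A last comparison asked whether the difference between knockout and heterozygous retinas was larger in bipolar cells than in rods of the same retinas. Of 10864 genes, 1 (0.0092%) passed by edgeR, which was *Xist*, and without the 6 microglia-marker cells it was again the only one. In rods *Xist* stood at 2.996, 8.86, 1088, 19.4 and 9.69 CPM, high in the same retina as in bipolar cells.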

How the data were processed

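Members and gene lists were chosen with earlier results of these data known. Libraries were 10x Chromium 3', which the authors ran through Cell Ranger 3.1.0 on mm10 (per the submitters' processing notes), assigned cells to samples with deMULTIplex and annotated cell types from clusters in Seurat 3. The deposited raw counts are whole UMI counts per gene and cell, not normalized by the authors. As deposited, the SCT layer holds natural log values, computed by the authors from counts (plus 1) adjusted for depth. The study's own test ran over cells and was not used.

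Raw counts were summed per retina and cell type (bipolar cells: 185664 to 1198461 UMIs per retina), giving 17849 genes. edgeR 4.0.16 in R 4.3.3 tested the sums (quasi-likelihood, TMM, filterByExpr, Benjamini-Hochberg, 0.05). DESeq2 1.42.0 and limma 3.58.1 on log2(CPM + 1 or 0.5) of summed SCT values were alternatives. P-values measure the spread between these samples only. The edgeR step was tested on simulated data. Cells were clustered with scanpy 1.11.5 and leidenalg 0.10.2 (2000 genes, 20 components, 15 neighbours), under Python 3.11.15 (pandas 2.3.3, scipy 1.17.1, numpy 2.4.6). Scrublet marked 2 of 3298 P14 cells (0.0606%), which was taken as a failed call, so the 5% of P14 cells with the highest scores (177 cells, 48 of them bipolar) were left out as an added alternative. The rule for naming clusters was set after the clusters were seen, and its condition on ties was changed once after the names it gave had been seen. Genes named were the listed genes, the 20 with the largest smallest log2 ratio in bipolar cells, up to 10 genes per direction past the threshold with groups that do not overlap, and the 5 leading genes of each cluster. *Ccl3*, *Ccl4*, *Lyz2* and *Gm4792*, whose groups overlap, and *Hopx* were named after their values were seen. Coordinates are from GENCODE M21 and promoters from RefSeq, both GRCm38. The explant and P0 libraries were not analysed here. Results for some genes are not reported here.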

Additional observations from a re-analysis of the deposited data

Results flagged for a closer look

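*Xist* was the 1 gene whose difference between knockout and heterozygous retinas was not the same in bipolar cells and rods by a test of the difference itself (interaction log2 -2.88, SE 0.56, adjusted p 0.00295 by edgeR over 10864 genes). Bipolar cells stood at 5.84, 40.3, 5187, 14.3 and 3.57 CPM and rods at 2.996, 8.86, 1088, 19.4 and 9.69 CPM in the wild type, heterozygous 1 and 2 and knockout 1 and 2. Heterozygous retina 2 was the only one with high *Xist*, and this comparison was not run without it. At far lower levels, bipolar cells also stood above rods in the wild type and heterozygous retina 1, and below rods in both knockouts.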

How the results depend on the processing

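Over the alternatives run, *Gm8797* passed in all 16 for knockout against heterozygous (2 of which are the same fit, since leaving out the wild type leaves the heterozygous and knockout retinas alone) and all 13 for knockout against wild type. The numbers of genes called were otherwise not stable. For knockout against heterozygous (12), DESeq2 called 1, limma 1 with either pseudocount, edgeR without the filter on low counts 19, the heterozygous and knockout retinas alone 3, knockout against the other 3 retinas 1, and leaving out the microglia-marker cells or cluster 6 gave 6 each, of which 4 and 6 were among the 12. For knockout against wild type (8), DESeq2 and limma (either pseudocount) called 1, leaving out the highest doublet scores gave 5 and leaving out cluster 6 gave 4. For heterozygous against wild type (8), DESeq2 and limma called 0, no filter gave 15 and leaving out cluster 6 gave 3. Leaving out each retina in turn gave 3 (without the wild type) to 61 (without knockout 2), 10 to 22 (without knockout 1), and 6 to 14 calls in these 3 comparisons, with a lone retina in a genotype assumed to vary like the others.

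Signs turned for few genes. Without single retinas, the log2 fold change of *Ccl3* ran from -5.05 (without knockout 1) to 8.73, of *Ccl4* from -2.69 (without knockout 1) to 9.97, of *Lyz2* from -4.06 to 1.54 (without heterozygous 1) between knockout and heterozygous and from -1.08 (without heterozygous 1) to 4.33 between heterozygous and wild type, and of *Gm4792* from -0.67 (without knockout 2) to 3.87 between knockout and wild type. *Opn1sw* turned to 1.07 and 1.01 (knockout against wild type) and 1.62 and 1.54 (heterozygous against wild type) without the highest doublet scores and without cluster 6. The cause was not tested. The share of bipolar cells against the other 3 retinas turned to -2.39 among non-rods and ran from 0.541 to 11.1 percentage points, and against heterozygotes from 3.80 to 14.4, without single retinas. Of the named genes' results under alternatives, 229 kept direction and call, 144 kept direction only and 9 turned.

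The microglia, doublet-score and cluster 6 alternatives were chosen after seeing the data. So was the naming rule for clusters: allowing ties, as first written, gives 4 OFF cone bipolar-like clusters of 122 cells in place of 3 of 96. No paired analysis was possible because the retinas of different genotypes share no animal or batch number that pairs them and the wild type is 1 retina. Depth was lowest in heterozygous retina 2, where a count of 0 allows up to 16.2 CPM, and 2 against 2 retinas allow no exact permutation p under 0.333.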

Other observations

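A search for genes with 2 separate levels among the retinas, with a threshold chosen after the data were seen (a gap of at least 6-fold in CPM + 1 between neighbouring retinas, a mean of at least 50 CPM and the microglia-marker cells left out), found 7 of 3595 genes. *Xist*, *Tsix*, *Ddx3y* and *Uty* set heterozygous retina 2 apart, in rods as in bipolar cells. *Cck* was at 0 in knockout retina 2, and *Gm4792* was low in the wild type and knockout retina 1. *Ddx3y* and *Uty* were at 0 in heterozygous retina 2. With all cells, a count of 0 allows up to 16.2 CPM in heterozygous retina 2 and 5.35 CPM in knockout retina 2. For *Ddx3y*, *Uty* and *Cck* a gap of 6-fold in CPM itself was therefore not shown.

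The seventh was *Hopx*, a homeodomain protein without DNA binding that is a Müller glia gene in the retina. With all cells it stood at 444, 35.3, 334, 33.4 and 494 CPM in bipolar cells, low in heterozygous retina 1 and knockout retina 1, a split that follows neither genotype nor the sex genes. Müller glia held it at 747, 877, 1026, 606 and 903 CPM and cones at 234, 246, 394, 291 and 447 CPM, without that split.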
